A study of Mus musculus with 3 samples.

Results

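Gzma, Gzmb, Gzmk, Prf1, Fasl, Nkg7, Ctsw, Klrg1 and Xcl1 are genes of the killing machinery of natural killer (NK) cells and cytotoxic T cells, of that lineage's granules and surface, and of its signals to other cells. They were taken by symbol, as a fixed list, and are 9 of the 32285 genes in each count table. The tables hold leukocytes from infrarenal aortas, the stretch under the kidney arteries, of Wild type mice, in 3 libraries titled Sham, AAA_7 and AAA_14, where AAA stands for abdominal aortic aneurysm. Sham aortas were given PBS (buffered saline) and AAA_14 aortas elastase, an enzyme that digests elastic fibres of the vessel wall. AAA_7 is titled as an aneurysm library but carries the PBS treatment label, and the unit of 7 and 14 is not stated, so that library is named by its title alone and AAA_14 over Sham is the main comparison. Cells of all 3 libraries were enriched on beads for the leukocyte marker CD45 and pooled over the aortas of a group (20 aneurysm and 50 control aortas are stated). Each group is therefore 1 library without replicates, no test between groups was possible, and the differences below are between single libraries. The 95% intervals cover counting error only, not differences between animals, cells or preparations.

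Cytotoxic lymphocytes kill by releasing granules onto a target cell. Perforin, encoded by Prf1, makes pores through which granzymes, serine proteases encoded by the Gzm genes, reach the target's interior. Fas ligand, encoded by Fasl, is a separate death signal that acts on the Fas receptor of the target. Nkg7 encodes a granule membrane protein needed for efficient granule release, Ctsw a cathepsin-family protease found in cytotoxic cells, Xcl1 a chemokine that attracts cross-presenting dendritic cells through Xcr1, and Klrg1 an inhibitory lectin-like receptor that binds cadherins. Klrg1 is also known on regulatory T cells and on group 2 innate lymphoid cells (ILC2), tissue-resident helper-type cells.

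After barcodes with fewer than 200 genes or over 10% of unique molecular identifiers (UMIs) from mitochondrial genes were dropped, 1235 Sham, 3229 AAA_7 and 5286 AAA_14 cells remained. The filter removed 67.4%, 7.64% and 47.7% of barcodes, and the median depth of the cells left was 3659, 2581 and 6967.5 UMIs. Cells were sorted by gates on marker UMIs. The NK gate (at least 2 UMIs of Ncr1, Klrb1c and Klre1 together and none of Cd3e) held 87, 166 and 120 cells, and the CD8 gate (a Cd3e UMI and a Cd8a or Cd8b1 UMI) 194, 146 and 307. In the same order, 19, 31 and 82 cells were in the regulatory T (Treg) gate, 13, 15 and 50 in the ILC2 gate, 17, 39 and 90 in the γδ T gate and 425, 496 and 1658 in the B gate. Before filtering, pairs of libraries shared 5 to 12 barcodes, and 1 to 8 after it. Of 12 NK markers that the NK gate did not use, Klrd1, Tyrobp, Fcer1g and Il2rb were each found in 75.9% to 99.2% of its cells in every library. Some others were sparser. S1pr5 was found in 12.6%, 8.43% and 18.3% of NK-gated cells of Sham, AAA_7 and AAA_14. Itgam was found in 17.2%, 30.1% and 41.7% and Klra8 in 28.7%, 38.6% and 44.2%. Trbc1, a T cell receptor constant gene, was found in 67.8%, 67.5% and 84.2% of NK-gated cells of Sham, AAA_7 and AAA_14, while Cd3d was found in 10.3%, 12.0% and 14.2%. Naive-type markers were common in the CD8 gate, with Lef1 in 80.9%, 58.9% and 83.4% of its cells and Ccr7 in 71.1%, 41.1% and 62.2%. Memory and effector genes were found as well, with Ccl5 in 32.5%, 42.5% and 30.3% of cells and Cd44 in 20.1%, 34.2% and 32.9%. B cell Cd79a was found in 27.3%, 2.05% and 18.2% of CD8-gated cells, and its part in the results was not tested beyond leaving out cells with B cell UMIs.

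Promoter sequences are shown for 5 of the genes because they include the sharpest NK gene (Gzma), 2 genes that differ from it in where they were found (Gzmb and Gzmk) and the 2 most abundant genes that are not granzymes (Nkg7 and Xcl1). Each runs 5′ to 3′ on the gene's strand from 250 bases before to 50 after the RefSeq start, on build GRCm38.p6. RefSeq entries matched 7 of the 9 genes, all but Ctsw and Klrg1. Capitals mark the core letters of motifs of 2 factor families that act in cytotoxic lymphocytes, RUNX (TGTGGT, or ACCACA on the other strand) and T-box (GGTGTGA, or TCACACC on the other strand), and no 2 matches overlap. Gzma lies at chr13:113100932-113101231 on the minus strand, Gzmb at chr14:56262285-56262584 (minus), Gzmk at chr13:113180916-113181215 (minus), Nkg7 at chr7:43436888-43437187 (plus) and Xcl1 at chr1:164935473-164935772 (minus).
Gzma: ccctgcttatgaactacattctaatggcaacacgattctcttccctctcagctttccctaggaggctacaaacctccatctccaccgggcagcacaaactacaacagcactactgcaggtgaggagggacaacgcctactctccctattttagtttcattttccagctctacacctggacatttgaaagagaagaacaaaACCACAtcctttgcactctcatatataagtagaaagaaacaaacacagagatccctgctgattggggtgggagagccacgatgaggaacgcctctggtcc
Gzmb: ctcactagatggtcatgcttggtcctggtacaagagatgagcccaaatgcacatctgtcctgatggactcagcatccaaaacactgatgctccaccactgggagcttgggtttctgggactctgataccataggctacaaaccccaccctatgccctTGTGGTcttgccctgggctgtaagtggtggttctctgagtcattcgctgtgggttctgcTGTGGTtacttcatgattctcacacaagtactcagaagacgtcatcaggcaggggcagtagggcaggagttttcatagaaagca
Gzmk: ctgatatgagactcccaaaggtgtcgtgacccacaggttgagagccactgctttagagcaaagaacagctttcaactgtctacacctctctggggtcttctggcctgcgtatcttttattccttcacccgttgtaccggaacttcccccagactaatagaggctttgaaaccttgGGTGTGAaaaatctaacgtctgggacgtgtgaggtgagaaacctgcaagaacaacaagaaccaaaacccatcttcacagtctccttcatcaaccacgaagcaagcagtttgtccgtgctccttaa
Nkg7: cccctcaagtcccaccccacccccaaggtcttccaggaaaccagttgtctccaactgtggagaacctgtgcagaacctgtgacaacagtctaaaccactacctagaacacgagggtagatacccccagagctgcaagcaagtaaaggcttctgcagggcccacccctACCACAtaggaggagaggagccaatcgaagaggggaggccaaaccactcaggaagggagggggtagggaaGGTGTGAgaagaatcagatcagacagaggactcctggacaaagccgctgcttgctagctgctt
Xcl1: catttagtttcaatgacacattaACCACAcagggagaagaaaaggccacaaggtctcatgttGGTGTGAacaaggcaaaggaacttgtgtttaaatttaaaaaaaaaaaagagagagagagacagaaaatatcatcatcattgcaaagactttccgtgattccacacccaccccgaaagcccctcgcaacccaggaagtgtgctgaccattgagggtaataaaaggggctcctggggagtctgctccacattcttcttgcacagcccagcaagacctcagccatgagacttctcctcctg
The RUNX letters occurred in the windows of 5 of the 7 genes (Gzma, Gzmb, Prf1, Nkg7 and Xcl1), with 2 matches in Gzmb. The T-box letters occurred in 3 (Gzmk, Nkg7 and Xcl1), and neither was found in the Fasl window. Of 32851 mouse promoter windows of the same length, 16.8% held the RUNX letters and 3.98% the T-box letters, and a match is a description of letters, not evidence of binding. In the GENCODE annotation of GRCm38 (mm10), Gzma (chr13:113093825-113100981) and Gzmk (chr13:113171608-113225908) are neighbours on the minus strand, 70627 bases apart. Gzmb (chr14:56258838-56262260) ends a row of 7 granzyme genes on chromosome 14. The others are at chr10:61297833-61304680 (Prf1), chr1:161780689-161788495 (Fasl), chr7:43437073-43438249 (Nkg7), chr19:5465043-5468507 (Ctsw), chr6:122270596-122282882 (Klrg1) and chr1:164931644-164935527 (Xcl1).

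NK-gated cells carried more of nearly all of these transcripts than CD8-gated cells in each library. With at least 10 UMIs required in the 2 gates together, 8 of 8 measured genes in Sham, 8 of 9 in AAA_7 and 8 of 9 in AAA_14 were at least 2-fold higher in the NK gate. Among all genes measured, 15.2%, 11.4% and 11.4% were at least 2-fold higher. None of the 9 was at least 2-fold lower, against 10.0%, 6.53% and 6.50% of all genes. The median log2 ratio over the genes was 3.87 in Sham, 2.55 in AAA_7 and 2.80 in AAA_14, where that of all genes was 0.21, 0.14 and 0.20. An NK gate without any CD3 or T cell receptor UMI held 9 of the 120 NK-gated cells of AAA_14. In it that library's median was 0.19 and 2 genes were at least 2-fold higher. The same gate held 15 cells of Sham and 35 of AAA_7. Over all settings tried, this one included, the lowest median was 3.46 in Sham and 1.85 in AAA_7. Trbc1 was found in 84.2% of the 120 cells and Cd3d in 14.2%. Levels below are UMIs per 1000000 of the gate's summed UMIs (CPM). One UMI stands for 1 captured 3′ end whatever the transcript's length, so levels of different genes are set side by side without a length correction.

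**Figure D1:**
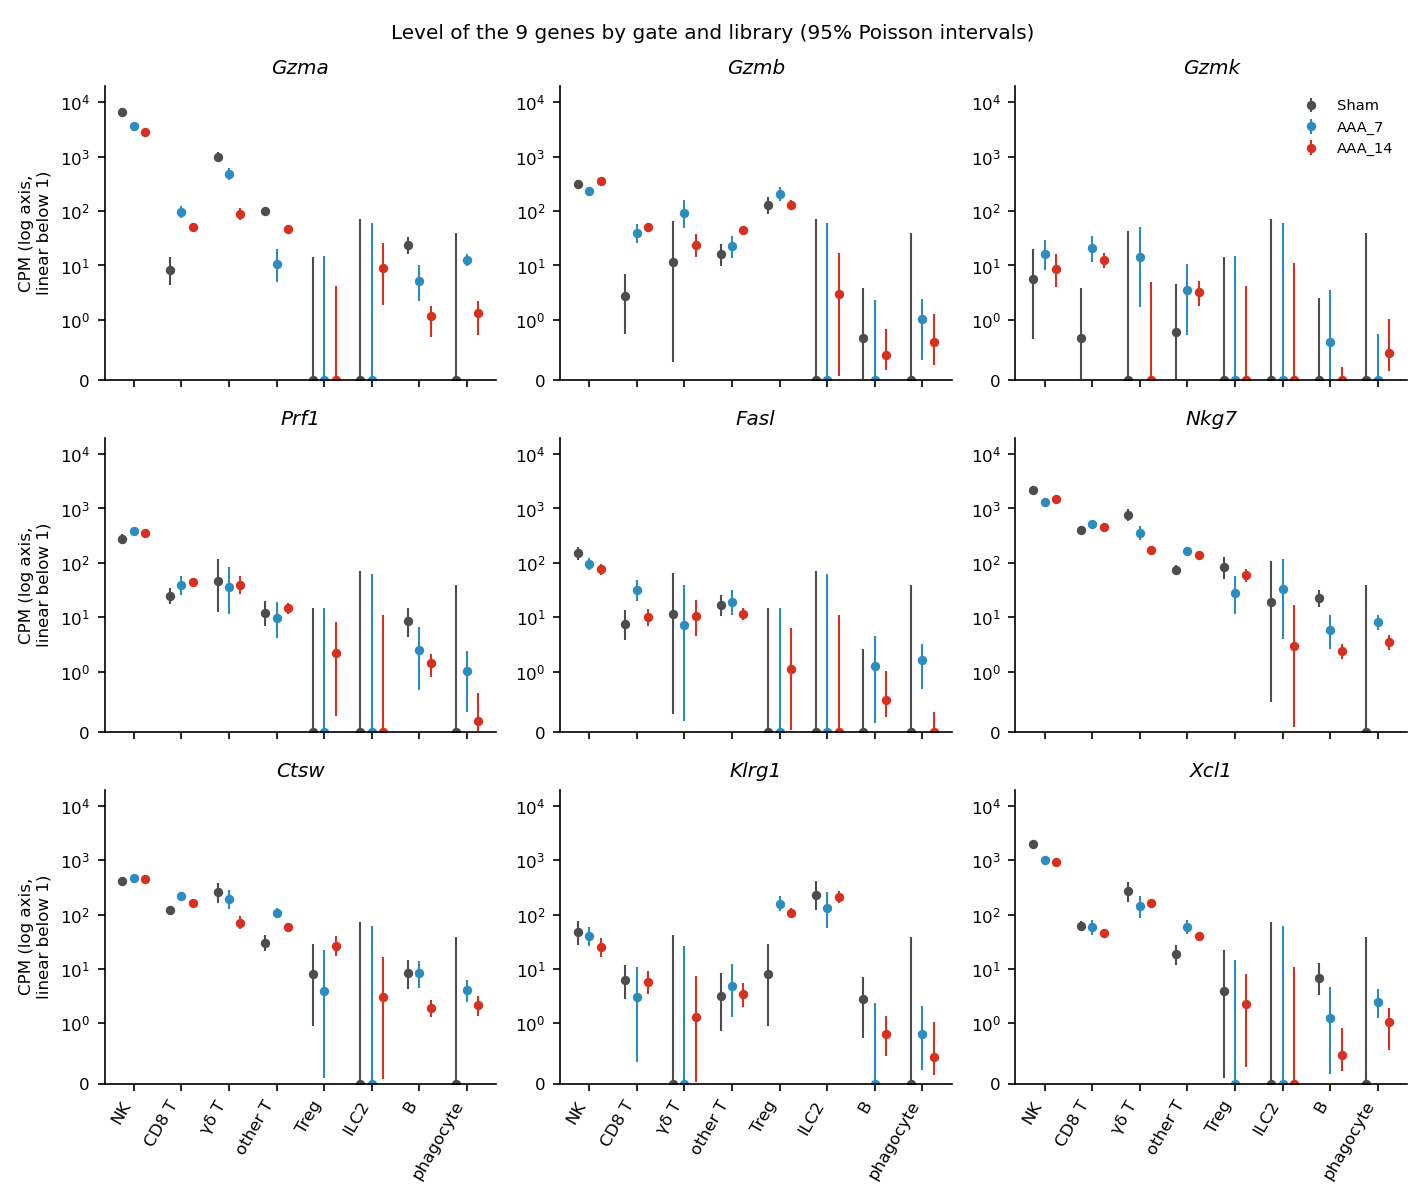
Level of each of the 9 genes in 8 gates and 3 libraries, in CPM on an axis that is logarithmic above 1 and linear below it, with 95% Poisson intervals (ILC2 gates hold 13 to 50 cells). Gzma stands highest in NK-gated cells of all libraries, while the highest Klrg1 level of each library is in the ILC2 or Treg gate.

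Gzma, a granzyme of trypsin-like specificity, was the most abundant of the 9 in NK-gated cells of every library, and CD8-gated cells held little of it. In the NK gate Sham had 6568 CPM (6304 to 6841), AAA_7 3668 (3524 to 3817) and AAA_14 2836 (2735 to 2941). In the CD8 gate it was 8.34, 96.9 and 51.5 CPM, so that the gates were far apart in all 3 libraries. The log2 ratio of NK over CD8 was 9.56 (8.81 to 10.58), 5.23 (4.88 to 5.62) and 5.78 (5.55 to 6.02). A Gzma UMI was found in 83.9%, 81.3% and 69.2% of NK-gated cells. In B-gated cells, which should lack the gene, it was found in 1.41%, 1.61% and 1.21%, at median depths of 2405, 1971.5 and 5631.5 UMIs against 3889, 3167 and 6550 in the NK gate. The CD8 shares, 3.09%, 6.85% and 5.21%, stood only a few points above those of B-gated cells, at median depths of 5558.5, 3334.5 and 7437 UMIs.

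Gzmb, a granzyme that cleaves after aspartate and activates caspases, stood in the NK gate at 312 CPM (Sham), 234 (AAA_7) and 359.7 (AAA_14). The CD8 gate held 2.78, 39.4 and 51.5 CPM. The log2 ratio of NK over CD8 was 6.64 (5.41 to 8.71), resting on 4 CD8 UMIs in Sham, then 2.55 (1.96 to 3.23) and 2.80 (2.53 to 3.08). Prf1, the perforin gene, had 278, 379 and 361 CPM in the NK gate and 25.0, 39.4 and 43.7 in the CD8 gate. Its log2 ratio varied least among the genes with a ratio in all 3 libraries, at 3.46, 3.24 and 3.04. Prf1 was found in 15.5%, 13.0% and 30.6% of CD8-gated cells against 1.88%, 0.806% and 1.39% of B-gated cells, and after every cell was thinned to 1000 UMIs the CD8 shares were 4.12%, 4.79% and 6.19%.

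Gzmk, a granzyme of memory-type T cells, was the exception to the NK excess. It was scarce throughout, with 4, 40 and 72 UMIs in all cells of Sham, AAA_7 and AAA_14. NK-gated cells held 2, 11 and 9 of these UMIs and CD8-gated cells 1, 14 and 39. The log2 ratio of NK over CD8 was -0.34 (-1.64 to 0.89) in AAA_7 and -0.49 (-1.78 to 0.52) in AAA_14, both with intervals that include 0, and Sham had too few UMIs for a ratio. Of the 9 NK-gated UMIs of AAA_14, 6 came from 1 cell.

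Fasl, the death ligand gene, was found at 153, 96.5 and 76.7 CPM in NK-gated cells of Sham, AAA_7 and AAA_14 and at 7.64, 31.8 and 10.0 CPM in CD8-gated cells. The NK over CD8 log2 ratio was 4.27 (3.37 to 5.41), 1.58 (0.87 to 2.39) and 2.92 (2.32 to 3.58). Nkg7 and Ctsw were the 2 genes that CD8-gated cells shared most broadly. Nkg7 stood at 2167, 1309 and 1518 CPM in the NK gate and 403, 515 and 454 in the CD8 gate, and was found in 98.9%, 90.4% and 92.5% of NK-gated but also 80.9%, 74.7% and 80.1% of CD8-gated cells. B-gated cells had an Nkg7 UMI in 1.88%, 1.21% and 1.45%. At 1000 UMIs per cell the Nkg7 shares were 90.8%, 65.8% and 72.5% in the NK gate and 29.4%, 47.3% and 29.6% in the CD8 gate. Ctsw stood at 419, 466 and 447 CPM in the NK gate and 122, 223 and 167 in the CD8 gate, and its log2 ratios were the smallest positive ones, 1.79, 1.06 and 1.42.

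Xcl1, the dendritic cell attracting chemokine, had the second-highest NK over CD8 ratio in AAA_7 and AAA_14. NK-gated cells held 2008, 1017 and 910.3 CPM and CD8-gated cells 61.2, 59.1 and 45.0, for log2 ratios of 5.03 (4.72 to 5.37), 4.09 (3.64 to 4.61) and 4.33 (4.08 to 4.60). In AAA_7, 1 cell held 24.9% of the gate's Xcl1 UMIs. Klrg1, the inhibitory receptor, was low in the NK gate at 48.1, 40.7 and 24.9 CPM, with 6.25, 3.03 and 5.83 CPM in the CD8 gate. All 9 CD8-gated Klrg1 UMIs of Sham and both of AAA_7 came from 1 cell each.

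**Figure D2:**
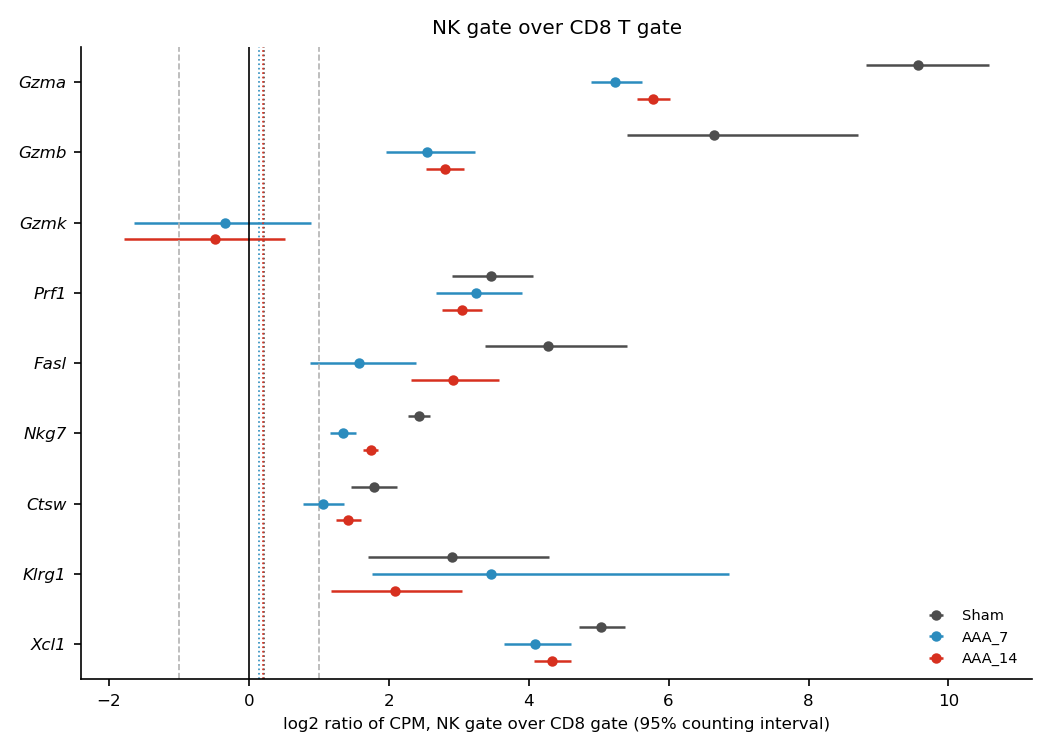
Log2 ratio of CPM in the NK gate over the CD8 gate for each gene (rows) and library (colours), with 95% counting intervals, dashed lines at 2-fold and dotted lines at the median of all genes. The genes lie to the right of the upper 2-fold line except Gzmk, which straddles 0 and has too few UMIs in Sham to be drawn.

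Counted over whole libraries, the genes differed in how far NK-gated cells held their UMIs. NK-gated cells held 88.3%, 86.0% and 85.2% of all Gzma UMIs of Sham, AAA_7 and AAA_14. They held 78.1%, 74.0% and 65.7% of Xcl1 and 56.6%, 77.0% and 56.6% of Prf1 UMIs. Gzmb was spread more widely, with 64.3%, 52.7% and 40.6% in NK-gated cells and, in AAA_14, 24.1% in other T cells, 17.2% in the CD8 gate and 12.8% in the Treg gate. Fasl had 59.3%, 50.0% and 40.2% in NK-gated cells, and other T cells held 29.1% in AAA_14. For Ctsw the NK gate held 34.9%, 42.4% and 31.6% and the CD8 gate 41.3%, 20.2% and 34.9%. The CD8 gate held the largest part of the scarce Gzmk UMIs in AAA_7 (35.0%) and AAA_14 (54.2%). Part of what lay outside both gates came from very few cells: all 86 Gzma UMIs of γδ T cells in Sham were in 1 cell, and they make up that gate's high point in the plot of levels by gate.

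**Figure D3:**
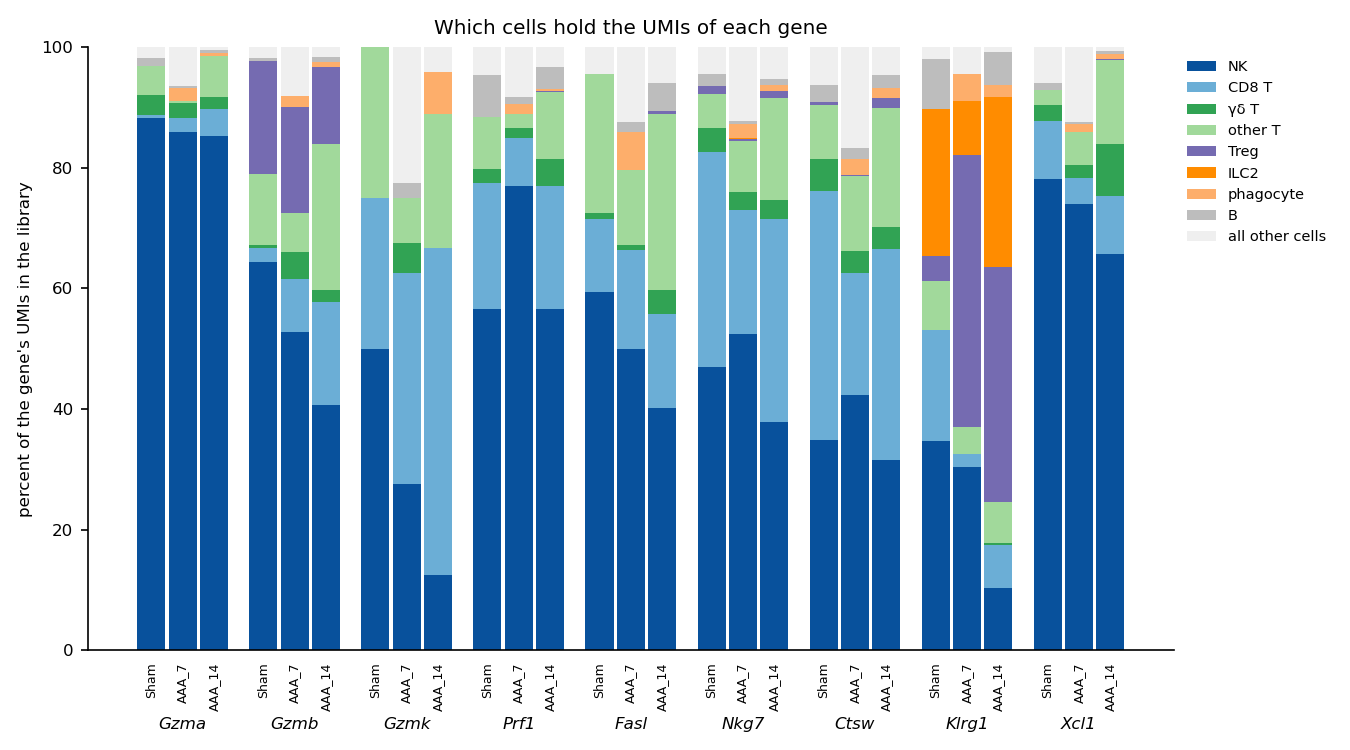
Percent of each gene's UMIs in a library (bars, Sham, AAA_7 and AAA_14 from left to right) that lie in each gate (colours). Dark blue NK-gated cells fill most of the Gzma and Xcl1 bars, light blue CD8-gated cells enter for Nkg7, Ctsw and Gzmk, and purple Treg and orange ILC2 cells fill much of Klrg1 in AAA_7 and AAA_14.

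Klrg1 was distributed unlike the others. Its highest levels were in ILC2-gated cells, at 234, 133 and 213 CPM in Sham, AAA_7 and AAA_14, and in Treg-gated cells of AAA_7 and AAA_14, at 160 and 109 CPM. The ILC2 values rest on 12 UMIs in 13 cells of Sham and 8 UMIs in 15 cells of AAA_7. Treg-gated cells of Sham held 2 Klrg1 UMIs (7.93 CPM). In AAA_14, 74.0% of the 50 ILC2-gated cells and 23.2% of the 82 Treg-gated cells had a Klrg1 UMI, against 15.8% of NK-gated and 0.603% of B-gated cells, and no ILC2 cell held over 7.04% of the UMIs. Of the Klrg1 UMIs of AAA_14, 38.9% were in Treg-gated, 28.2% in ILC2-gated and 10.3% in NK-gated cells. In AAA_7 these shares were 44.9%, 8.99% and 30.3%, while in Sham, with 49 UMIs in all, NK-gated cells held the largest part at 34.7%, ILC2-gated cells 24.5% and Treg-gated cells 4.08%. Median depths were 5420 UMIs in ILC2-gated and 6550 in NK-gated cells, and thinned to 1000 UMIs the shares were 18.0% and 2.50%.

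Gzmb was the only granzyme of the 3 listed that was found in Treg-gated cells. Gzma and Gzmk had no UMI there in any library (0 of 19, 31 and 82 cells, which allows shares of cells with a UMI of up to 15.8%, 9.68% and 3.66%). Gzmb stood at 127, 208 and 132 CPM in Treg-gated cells of Sham, AAA_7 and AAA_14, where the NK gate had 312, 234 and 359.7, and in AAA_7 these intervals overlapped (155 to 273 and 198 to 274). It was held by few cells: 2 of 19 cells in Sham, with 87.5% of the UMIs in 1, 11 of 31 in AAA_7 and 13 of 82 in AAA_14, with 58.5% in 1. Prf1 in the Treg gate was 0, 0 and 2 UMIs, so Gzmb was found there almost without the pore-forming gene.

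Within cells, several of the genes were found together in most NK-gated cells and in few CD8-gated cells. With each cell thinned to 1000 UMIs, at least 3 of the 9 genes were found in 73.6%, 55.9% and 60.8% of NK-gated cells of Sham, AAA_7 and AAA_14, and at most 7 in any 1 cell. In CD8-gated cells the share was 0.515%, 7.53% and 2.61%, and in B-gated cells 0.237%, 0 and 0, where 0 of 479 and 0 of 1640 cells allow up to 0.626% and 0.183%. At least 1 gene was found in 42.3%, 60.3% and 43.6% of CD8-gated and 3.08%, 2.71% and 0.854% of B-gated cells. Gzmb was nested in Gzma: in the NK gate, Gzma was found in 95.5%, 100% and 91.3% of cells with Gzmb and in 73.8%, 65.9% and 49.5% of those without. Prf1 was likewise found more often with Gzma (23.2%, 32.8% and 37.7%) than without it (5.56%, 8.89% and 13.7%). Xcl1 went the other way in point values, with 53.6%, 35.3% and 36.2% of Gzma-positive and 61.1%, 53.3% and 52.9% of Gzma-negative cells, and the intervals overlapped in each library.

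Between libraries, Gzma, Xcl1, Fasl and Nkg7 stood lower in NK-gated cells of AAA_14 than of Sham, Gzma and Xcl1 by more than 2-fold. Cells with phagocyte or neutrophil transcripts were also more frequent in that gate of AAA_14. Without them both genes were still lower in AAA_14, but neither was past 2-fold. The part of these cells in the result was not tested. Prf1 stood slightly higher, and the intervals of Gzmb and Ctsw included 0. The Gzma levels of 6568 and 2836 CPM gave a log2 ratio of -1.21 (-1.29 to -1.13), and the Xcl1 levels of 2008 and 910.3 CPM one of -1.14 (-1.28 to -0.999). These were the 2 genes of 9 past 2-fold lower, against 4.77% of all genes, and 0 were past 2-fold higher, against 23.9%. Fasl, with a log2 ratio of -0.999 (-1.51 to -0.47), lay just inside 2-fold. Nkg7 was at -0.51 (-0.64 to -0.39) and Klrg1 at -0.96 (-1.89 to 0.02). Prf1 was at 0.37 (0.05 to 0.71), Gzmb at 0.20 (-0.10 to 0.53), Ctsw at 0.09 (-0.18 to 0.37) and Gzmk at 0.36 on 11 UMIs.

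The median over the 9 genes was -0.51, where that of all genes was 0.27. With a mitochondrial limit of 5%, which left 14 Sham and 27 AAA_14 cells in the NK gate, the median was -1.94 and 8 genes passed 2-fold lower. Relative to the shift of all genes, Gzma was at -1.49, Xcl1 at -1.42, Fasl at -1.27 and Klrg1 at -1.24, so 4 genes passed 2-fold lower, and Gzmb (-0.07) and Ctsw (-0.19) changed sign. Thinned to 1000 UMIs per cell, Gzma kept a log2 ratio of -1.09 while Xcl1 was at -0.56. The share of NK-gated cells with a Gzma UMI at that depth was 79.3% in Sham and 57.5% in AAA_14. Mitochondrial UMIs made up 6.75% of the NK gate in Sham and 5.54% in AAA_14, and the part of this in the result was not tested beyond the limits tried.

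Markers of other cell types moved in the same gate. The summed level of 4 neutrophil genes in NK-gated cells was 198 CPM (Sham), 1163 (AAA_7) and 15636 (AAA_14), and S100a8 was found in 25.3%, 30.1% and 55.0% of cells. The 5 phagocyte genes summed to 5.66, 1087 and 649 CPM, with 4 of them at 0 in Sham. B cell Ighm was found in 43.7%, 51.8% and 82.5% of cells. When cells with at least 2 UMIs of phagocyte genes, Csf3r and Retnlg together were left out, an alternative chosen after seeing the data, 87 NK-gated cells of Sham, 128 of AAA_7 and 76 of AAA_14 remained. The AAA_14 over Sham log2 ratio was then -0.81 for Gzma, -0.86 for Xcl1, -0.53 for Fasl, -0.19 for Nkg7 and 0.93 for Prf1, with 0 genes past 2-fold lower.

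In the library titled AAA_7, the same Sham library being the denominator, NK-gated Gzma was at a log2 ratio of -0.84 (-0.92 to -0.76), Xcl1 at -0.98 (-1.14 to -0.83), Nkg7 at -0.73 and Fasl at -0.67. Prf1 was at 0.44 (0.11 to 0.80). Without the cells of phagocyte or neutrophil UMIs, Gzma was at -0.80 and Xcl1 at -0.65. Mitochondrial UMIs made up 1.71% of the NK gate in AAA_7 against 6.75% in Sham, and their part in the result was not tested beyond the limits tried. None of the 9 passed 2-fold lower (5.55% of all genes did) and 1 passed 2-fold higher (21.1% did), which was Gzmk, on 11 UMIs against 2 and with an interval of -0.65 to 4.77. The median was -0.42, against 0.26 for all genes. Set against AAA_7 in the NK gate, AAA_14 had no gene past 2-fold in either direction, where 8.59% of all genes were higher and 5.07% lower. Gzmb at 0.62 (0.35 to 0.90), Nkg7 at 0.21 (0.09 to 0.34), Gzma at -0.37 (-0.45 to -0.29) and Xcl1 at -0.16 (-0.30 to -0.01) had intervals clear of 0.

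**Figure D4:**
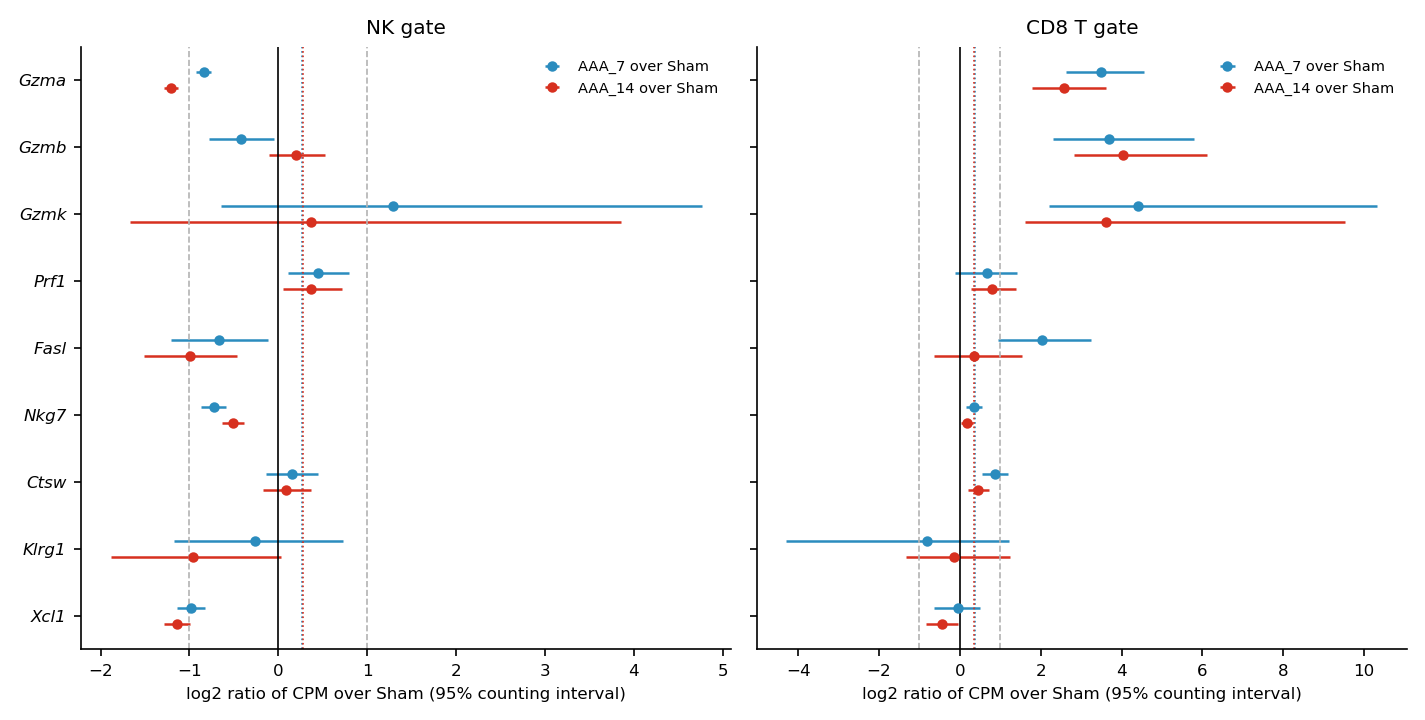
Log2 ratio of CPM over Sham for each gene in NK-gated (left) and CD8-gated cells (right), for AAA_7 (blue) and AAA_14 (red), with 95% counting intervals, dashed lines at 2-fold and dotted lines at the median of all genes, which nearly coincide for the 2 libraries. Gzma lies left of 0 in NK-gated and right of 0 in CD8-gated cells, and both ratios of a gene share the Sham library.

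In CD8-gated cells the 3 granzymes stood higher in AAA_14 than in Sham, from very low levels. Gzma had 12 UMIs in Sham and 159 in AAA_14 (8.34 and 51.5 CPM), for a log2 ratio of 2.57 (1.78 to 3.61). Gzmb had 4 and 159 UMIs (2.78 and 51.5 CPM, 4.05, 2.83 to 6.11), and Gzmk 1 and 39 UMIs (0.695 and 12.6 CPM, 3.62, 1.62 to 9.52). They were the 3 of 9 genes past 2-fold higher, against 22.0% of all genes, and 0 were past 2-fold lower, against 3.64%. Prf1 was at 0.79 (0.27 to 1.38), Ctsw at 0.45 (0.21 to 0.71), Fasl at 0.35 (-0.64 to 1.54), Nkg7 at 0.17 (0.03 to 0.31), Klrg1 at -0.14 and Xcl1 at -0.44 (-0.84 to -0.04). The median was 0.45 against 0.36 for all genes, and relative to that shift Nkg7 was at -0.18.

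Other markers moved in the CD8 gate as well. The 5 phagocyte genes summed to 75.8 CPM in Sham and 1039 in AAA_14, with Lyz2 in 4.12% and 45.6% of cells, and 5 B cell genes to 708 and 2292 CPM. Of the memory and effector genes, Cxcr6 was found in 9.79% and 26.4% of cells, Cxcr3 in 7.73% and 18.2% and Lag3 in 0.515% and 8.14%, at median depths of 5558.5 and 7437 UMIs. Without the cells of phagocyte or neutrophil UMIs (190 left in Sham and 189 in AAA_14), Gzma was at 2.54, Gzmb at 4.72 and Gzmk at 3.84.

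These granzyme UMIs sat in few CD8-gated cells. In AAA_14, 16 of 307 cells had Gzma, 14 Gzmb and 13 Gzmk, and the top cell held 28.3%, 37.1% and 25.6% of the UMIs. In Sham, 6, 3 and 1 of 194 cells had them. The share of cells with Gzma, 5.21% (3.01% to 8.32%) against 3.09% (1.14% to 6.61%), had overlapping intervals. The Gzma ratio changed with the cells kept: in CD8-gated cells without any Ncr1, Klrb1c or Klre1 UMI it was 0.39 in AAA_14 and 0.91 in AAA_7, and with a mitochondrial limit of 20%, which kept 432 Sham CD8-gated cells, it was 1.16 and 2.28. Gzmb under the same settings was 3.32 and 3.74 in AAA_14. Without the top cell of each gene and library, Gzma, Gzmb and Gzmk in AAA_14 were at 2.61, 4.23 and 4.78.

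The library titled AAA_7 gave CD8-gated log2 ratios over Sham of 3.49 (2.64 to 4.56) for Gzma, 3.68 (2.30 to 5.80) for Gzmb and 4.40 (2.22 to 10.33) for Gzmk. Fasl was at 2.03 (0.94 to 3.26), with 28.6% of its 21 AAA_7 UMIs in 1 cell. These 4 genes were past 2-fold higher, against 22.9% of all genes, and 0 were past 2-fold lower, against 5.80%. The median was 0.87, against 0.37 for all genes. From AAA_7 to AAA_14, Fasl in CD8-gated cells was lower by a log2 ratio of -1.67 (-2.51 to -0.79), the 1 gene past 2-fold lower (6.58% of all genes were), and 0 were past 2-fold higher (7.23% were).

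Splits of the NK gate were chosen with values in view. In the Cxcr6 split, the point values of Gzma and Xcl1 differed in opposite directions in AAA_7 and AAA_14, on few cells. NK-gated cells with a UMI of Cxcr6, a chemokine receptor of tissue-resident lymphocytes, numbered 3, 7 and 18 in Sham, AAA_7 and AAA_14. In AAA_14 they held 440.1 CPM of Gzma and 1627 of Xcl1, where the 102 cells without Cxcr6 held 3169.5 and 811, with 73.2% of the Gzma UMIs with Cxcr6 in 1 cell. In AAA_7 the values were 266 and 1462 with Cxcr6 and 3917 and 984 without, although 1 cell held all the Gzma UMIs and 51.5% of the Xcl1 UMIs with Cxcr6 came from 1 cell. Gzmb had no UMI in the 7 Cxcr6-positive cells of AAA_7 and stood at 15.7 CPM in those of AAA_14, with 251 and 408 CPM in the rest. Median depths were 6002.5 UMIs with and 6640 without Cxcr6 in AAA_14.

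All 5 genes of a list for type 1 innate lymphoid cells (tissue-resident relatives of NK cells) were found in more NK-gated cells of AAA_14 than of Sham: Cxcr6 in 15.0% against 3.45%, Itga1 in 15.8% against 3.45%, Tnfsf10 in 15.0% against 5.75%, Il7r in 24.2% against 10.3% and Tmem176b in 30.0% against 3.45%. Their summed level was 366 CPM in AAA_14, 186 in AAA_7 and 150 in Sham. Median depth of the gate was 6550 UMIs in AAA_14 and 3889 in Sham. Of 12 NK genes that the gate did not use, some were also found in more cells of AAA_14. Itgam was in 41.7% against 17.2%, Tbx21 in 48.3% against 28.7% and Klra8 in 44.2% against 28.7%. Klrd1, Klra4 and Il2rb were found in fewer, and the 12 summed to 6785 CPM in AAA_14 and 9015 in Sham. Cells without Cxcr6 held 6819 CPM of Gzma in Sham and 3169.5 in AAA_14. The part of the list in the Gzma result was not tested. For Eomes, a T-box factor of NK cells, cells with a UMI held 7326, 3948 and 3809 CPM of Gzma and those without 5552, 3061 and 1328 in Sham, AAA_7 and AAA_14. Cells with Itgam, a marker of mature NK cells, held 7315, 5203 and 3750 CPM and those without 6417, 3025 and 1802. Gzma was highest in Sham in each of these 4 fractions and lowest in AAA_14, although with Eomes the intervals of AAA_7 (3767 to 4135) and AAA_14 (3658 to 3964) overlapped.

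**Figure D5:**
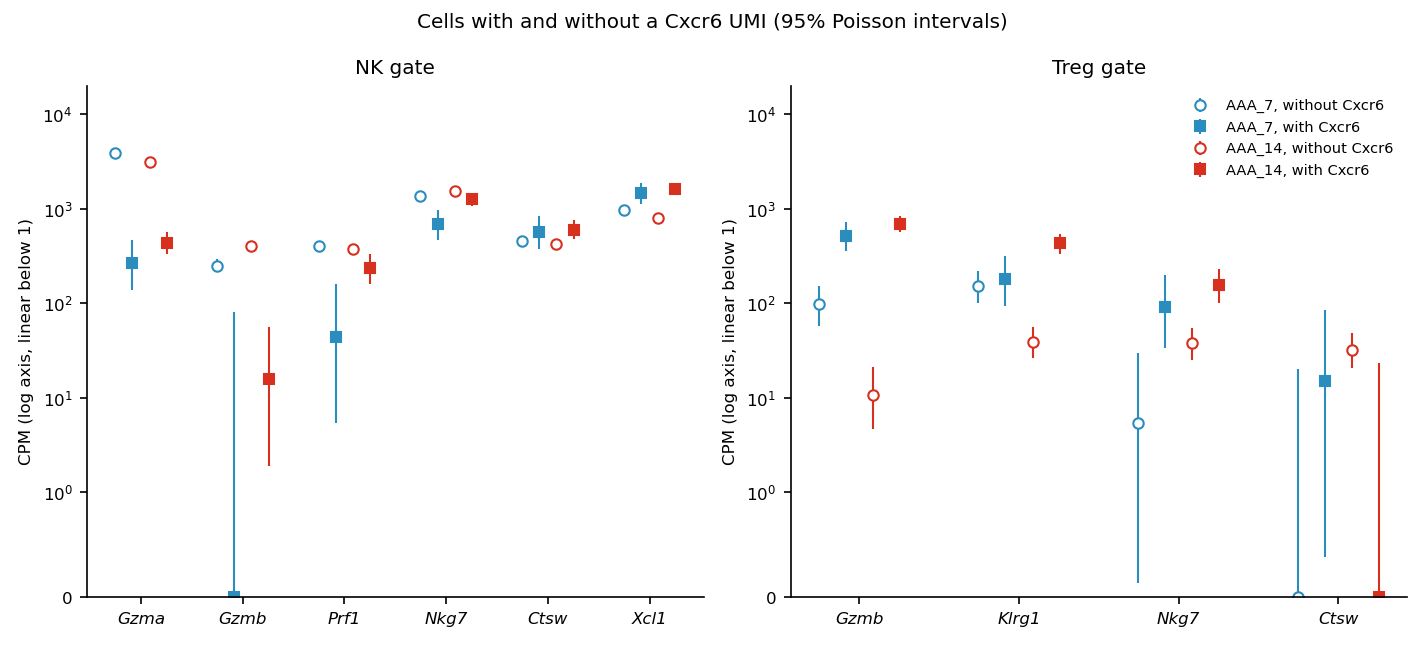
Level in CPM (axis logarithmic above 1, linear below it) in cells with (filled squares) and without (open circles) a Cxcr6 UMI, in the NK gate (left) and the Treg gate (right), for AAA_7 (blue) and AAA_14 (red), with 95% Poisson intervals. In NK-gated cells the values of Gzma and Gzmb are lower and those of Xcl1 are higher with Cxcr6. In Treg-gated cells Gzmb is higher with it. The fractions with Cxcr6 hold few cells. Single cells hold much of their Xcl1 UMIs in AAA_7 and of their Treg-gated Gzmb UMIs in AAA_14.

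In Treg-gated cells the same receptor went with more Gzmb. The 19 Cxcr6-positive Treg-gated cells of AAA_14 held 691 CPM of Gzmb and 433 of Klrg1, and the 63 others 10.8 and 39.3. In AAA_7, 7 Cxcr6-positive cells held 518 and 183 CPM and the 24 others 97.7 and 152. One cell held 62.7% of the Gzmb UMIs of the AAA_14 fraction, but at 1000 UMIs per cell the share of cells with Gzmb was also 31.6% against 1.59%. No Treg-gated cell of Sham had a Cxcr6 UMI.

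Around these 9 genes, 51 other genes of the pathway were grouped by role. Activating and cytokine receptors of killer cells were at least 2-fold higher in NK-gated than CD8-gated cells for 9 of 9 in Sham, 7 of 9 in AAA_7 and 7 of 9 in AAA_14, against 15.2%, 11.4% and 11.4% of all genes. Klrk1, which encodes the activating receptor NKG2D, stood at log2 ratios of 5.92, 3.33 and 4.10, and Cd244a at 5.15, 3.98 and 3.69. Granzyme inhibitors that protect the killer itself were higher for 3 of 4 in each library. Serpinb9 stood at 433, 278 and 312 CPM in the NK gate and 11.8, 51.5 and 26.2 in the CD8 gate, and Serpinb9b was found as 17, 11 and 13 UMIs against 0, 1 and 0. Secreted signals were higher for 4 of 4, 4 of 5 and 4 of 4 measured, with Ccl5 at 13099.5, 4642 and 4521 CPM in the NK gate and Ifng at 447, 315 and 243.

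Granule make-up and release genes differed less between the gates than the cargo. At least 2-fold higher were 1 (Sham), 0 (AAA_7) and 0 (AAA_14) of 5 make-up genes, with 2, 1 and 1 for the 5 release genes, against the same 15.2%, 11.4% and 11.4% of all genes. Srgn, the proteoglycan that packs granzymes, was at log2 ratios of 0.53, 0.03 and 0.43, Cst7 at 1.66, 0.32 and 0.83, Rab27a, which docks granules, at 0.15, 0.49 and 0.82, and Stx11 at 2.46, 0.34 and 1.43. Of the other death ligands, Tnf was at 1.34, -1.18 and -0.30, and Lta had 0, 5 and 4 UMIs in the NK gate and 20, 4 and 42 in the CD8 gate. Of the T-box factors, Tbx21 was at 3.15, 2.01 and 2.30 and Eomes at 2.75, 2.50 and 1.93. Gzmm, another granzyme, gave 14.2, 13.6 and 6.71 CPM in the NK gate and 14.6, 15.1 and 12.0 in the CD8 gate with intervals of the ratio that include 0 in each library.

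From Sham to AAA_14 in the NK gate, Ccl5 went with Gzma, at a log2 ratio of -1.53 (-1.59 to -1.48), and Ifng was at -0.88 (-1.18 to -0.59). Of the secreted signals, 3 of 4 measured were at least 2-fold lower and 0 higher, where 4.77% of all genes were lower. Of the granule release genes 3 of 5, among them Rab27a, were at least 2-fold higher, where 23.9% of all genes were. Rab27a stood at 1.35 (0.30 to 2.82) on 7 Sham UMIs. Of the receptors of the ligands, Fas and Cdh1 were highest outside the NK and CD8 gates, among the gates compared. Among gates of at least 15 cells, Fas was highest in neutrophil-gated cells, at 86.5, 159 and 52.9 CPM in Sham, AAA_7 and AAA_14, against 5.66, 22.6 and 6.71 in NK-gated cells. Xcr1, the receptor of Xcl1, stood at 86.4 and 142 CPM in the dendritic cell gate of AAA_7 and AAA_14, a gate that uses this gene, and in Sham at 12 UMIs of 1 B-gated cell, with no UMI in the NK, CD8, other T or phagocyte gates. Cdh1, which encodes the cadherin that Klrg1 binds, was highest among these gates in plasmacytoid dendritic cells, at 22.5, 207 and 127 CPM, on 3 UMIs in Sham. Tnfrsf10b, a receptor of the death ligand encoded by Tnfsf10, had 0, 3 and 0 UMIs in the NK gate and 7, 4 and 35 in the CD8 gate.

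Across 29 combinations of gate and library, which share libraries and depths, the genes whose log CPM ran most like each member among 12210 genes were as follows. Prf1 was nearest to Eomes (Pearson r 0.97), Gzma to the NK receptor gene Klrc1 (0.95), Xcl1 to Samd3 (0.95) and Ctsw to Ifng (0.95). Fasl was nearest to Cd160 (0.94), Nkg7 to Ms4a4b (0.94), Gzmk to Baiap3 (0.91) and Gzmb to Il2rb (0.90). Klrg1 was nearest to Tnfrsf18 (0.89), a costimulatory receptor gene of Treg cells, and Il1rl1 (0.84), which the ILC2 gate uses. Among the 9, Nkg7 and Ctsw were closest (0.96), and Klrg1 had r values of 0.08 to 0.25 with all but Gzmb (0.60).

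Values near the edge of the NK gate differed between libraries. Among cells without Cd3e, those with exactly 2 UMIs of the gate genes numbered 3 (Sham), 26 (AAA_7) and 8 (AAA_14). Gzma was found in 33.3%, 80.8% and 12.5% of them. With exactly 1 UMI, just outside the gate, the 13, 60 and 65 cells had Gzma in 15.4%, 31.7% and 1.54%. Cells with Cd3e and at least 2 UMIs of the gate genes, T cells by this marker, numbered 9, 28 and 46, and they had Gzma in 33.3%, 32.1% and 26.1% and Nkg7 in 88.9%, 75.0% and 84.8%.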

How the data were processed

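For 3 libraries the authors deposited raw UMI counts per gene and barcode. Per the file headers, version 6.1.2 of Cell Ranger wrote them. Seurat and mm10 are also named in the submitters' processing notes, with no role, and the annotation used for counting is not given in the sources used here. Single-cell 3′ chemistry counts molecules, not reads.

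From these counts, cells with at least 200 genes and at most 10% mitochondrial UMIs were assigned to 13 gates on marker UMIs, with the CD8 gate taking precedence among Cd3e cells and the NK gate among the rest. The members and gene lists were chosen with earlier results of these data known. UMIs were summed per gate and library and given as CPM with exact Poisson intervals. Log2 ratios had 0.5 counts added to each sum and exact conditional binomial 95% intervals, shares exact Clopper-Pearson intervals, and a share of 0 an upper limit of 3 counts of the total. Genes needed 10 UMIs in both sums together to be measured, and 2-fold was the threshold. For shares at equal depth each cell was thinned to 1000 UMIs with a fixed seed, which left out 5 NK-gated cells of AAA_7. The calculation was tested on simulated data. Named pathway genes were the 2 of each role with the largest absolute NK over CD8 ratio in AAA_14. Of the receptors of the ligands, Fas, Xcr1 and Cdh1 were described over further gates. Likeness was Pearson's r of log2(CPM + 10) over gates of at least 20 cells, for genes with at least 100 UMIs. Scrublet's automatic threshold marked 2, 0 and 0 cells and was taken as failed, so doublets were kept, and leaving out the 12, 83 and 224 cells with the highest scores was an alternative. Python 3.11.15, scipy 1.17.1, scanpy 1.11.5 and edgeR 4.0.16 (for TMM factors only) were used.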

Additional observations from a re-analysis of the deposited data

Results flagged for a closer look

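Gzma, the trypsin-like granzyme, moved in opposite directions between the same 2 libraries in the NK gate and the CD8 gate. From Sham to AAA_14 its log2 ratio of CPM was -1.21 in NK-gated cells and 2.57 in CD8-gated cells. The difference between these ratios was not tested, since each group is 1 library. The CD8 value rests on 12 UMIs in Sham, and in CD8-gated cells without any NK gene UMI it was 0.39. Without cells of phagocyte or neutrophil UMIs the NK-gated value was -0.81.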

How the results depend on the processing

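Recomputed medians over the genes stayed within the median's own interval in 145 cases and left it in 8. Ratios of single genes stayed within their counting interval in 1036 cases, moved out of it in 199 and reversed in 8. Shares of cells with a UMI stayed in 61 cases and moved in 47. The sign of single-gene ratios changed in 75 cases under 14 settings. The 8 reversed ones among these concerned ratios past 2-fold with an interval clear of 0. Those 8, and all but 1 of the 8 medians, came from 2 settings that left few cells. An NK gate without any CD3 or T cell receptor UMI held 15 Sham, 35 AAA_7 and 9 AAA_14 cells: the NK over CD8 median in AAA_14 was 0.19, with Nkg7 at -0.99, Ctsw at -0.90 and Xcl1 at -1.22, and the NK-gate medians were -3.65 for AAA_14 over Sham, -1.66 for AAA_7 over Sham and -2.14 for AAA_14 over AAA_7. A mitochondrial limit of 5% left 14, 161 and 27 NK-gated and 1, 141 and 31 CD8-gated cells: the NK-gate medians were -1.94, -1.12 and -1.16 in the same order, Gzmb NK over CD8 in AAA_14 was -0.22, and CD8-gated ratios over Sham were -0.81 for Gzmk in AAA_14 and -0.28, -1.15 and -0.59 for Gzmb, Gzmk and Fasl in AAA_7. Thinned to 1000 UMIs, the NK-gate median of AAA_14 over AAA_7 was 0.22. The cause was not tested.

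Counts of genes past 2-fold moved too. Those lower in NK-gated cells of AAA_14 than of Sham were 2, and 0 to 4 under settings other than these 2, which gave 7 and 8. The 0 came from leaving out cells with phagocyte or neutrophil UMIs. Those higher in NK-gated than CD8-gated cells of AAA_14 were 8, and 2 without CD3 or T cell receptor UMIs, 6 with the 5% limit and 7 when thinned. Leaving out cells with at least 2 B cell UMIs, also chosen after seeing the data, gave -1.23 for Gzma in NK-gated and 2.63 in CD8-gated cells of AAA_14 over Sham. No paired analysis was possible because each group is 1 library and replicates carry no shared number. Depth limits Gzmk in both gates and Klrg1 in CD8-gated cells, which had at most 39 UMIs in each sum.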
